A study of Mus musculus and Homo sapiens with 22 samples.

Results

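The mitotic kinases Aurora A and Aurora B and the proteins that switch them on were followed as 5 genes in 2 breast cancer lines treated with Aurora kinase inhibitors. The genes were Aurka and its activator Tpx2, and Aurkb with its partners Incenp and Birc5. They were chosen by name, as mouse symbols in the 4T1 tables and as gene IDs in the MDA-MB-231 tables. They are 10 of the 81637 gene entries listed, 5 of 38924 in 4T1 and 5 of 42713 in MDA-MB-231, and all 5 passed the low-count filter in each line. In MDA-MB-231 they were read from ENSG00000087586.13 (AURKA), ENSG00000088325.11 (TPX2), ENSG00000178999.8 (AURKB), ENSG00000149503.8 (INCENP) and ENSG00000089685.10 (BIRC5).

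Aurora A acts at centrosomes and spindle poles, where binding of TPX2 holds its catalytic domain in the active form and brings the kinase to spindle microtubules. Aurora B works in the chromosomal passenger complex, in which INCENP activates the kinase and survivin, the product of BIRC5, together with borealin (CDCA8) places it on centromeres and later on the midzone. Messenger RNA of all these genes builds up in G2 and mitosis and is low in G1, so the level in a culture also follows how many cells are in those phases.

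MDA-MB-231, a human triple-negative breast cancer line, was treated with 2.5 or 5 µM ENMD-2076, with 1 or 2 µM TAK901, or with DMSO, the solvent. Libraries labelled 4T1, a mouse mammary carcinoma line, came from cells given 1.25 or 2.5 µM ENMD-2076 with DMSO 1 and 2 beside them, or 1 or 2 µM TAK901 with DMSO 3 and 4. Each compound inhibits Aurora kinases, as is known from other work. Treatment lasted 24 h, total RNA was sequenced, and each of the 11 groups held 2 libraries. Nothing in the labels tells whether replicates came from different cultures, so the p-values reflect library-to-library spread alone, and that could be technical.

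Depth was 13.4 to 24.0 M counted reads in MDA-MB-231 and 14.4 to 30.9 M in 4T1-labelled libraries, except 6.00 and 3.75 M in the 4T1-labelled pair at 2 µM TAK901. The MDA-MB-231 pair at 2 µM TAK901 differed most within a group, with a chi-square per degree of freedom of 59.3 against 2.48 to 8.56 in the other 10 groups. Calls over DMSO for the other treatments of that line are therefore also given without this pair. The 6 libraries of TAK901 and DMSO 3 and 4 went against their label in part. They held 1004 to 7021 reads of 4 Y-linked genes and 303 to 368 CPM (a gene's counts scaled to a fixed library total) of the endoderm factors Hnf4a, Cdx2 and Pdx1, all of which were at 0 reads in the 6 libraries of ENMD-2076 and DMSO 1 and 2. The 4T1 line derives from a mammary tumour of a female mouse. Of 6 mammary epithelial markers Krt5 had at most 6 reads in any 4T1-labelled library, and the other 5 had reads in every one. Their levels differed between the DMSO pairs. Epcam was at 93.5 and 95.4 CPM in DMSO 3 and 4, against 348 and 351 CPM in DMSO 1 and 2. Cdh1, Krt8 and Krt14 were higher in DMSO 3 and 4, and Krt18 overlapped. The ENMD-2076 2.5 µM pair of 4T1 held 2185 and 2004 CPM of the noncoding RNA Gm26917, against 36.5 and 29.9 CPM in DMSO 1 and 2. Mitochondrially encoded reads made up 6.21 and 7.09% with 1.25 µM and 8.83 and 8.72% with 2.5 µM, against 3.92 and 4.13% in DMSO 1 and 2. Marker genes of MDA-MB-231 were not analysed here, because its IDs other than the 5 were not paired with symbols.

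**Figure D1:**
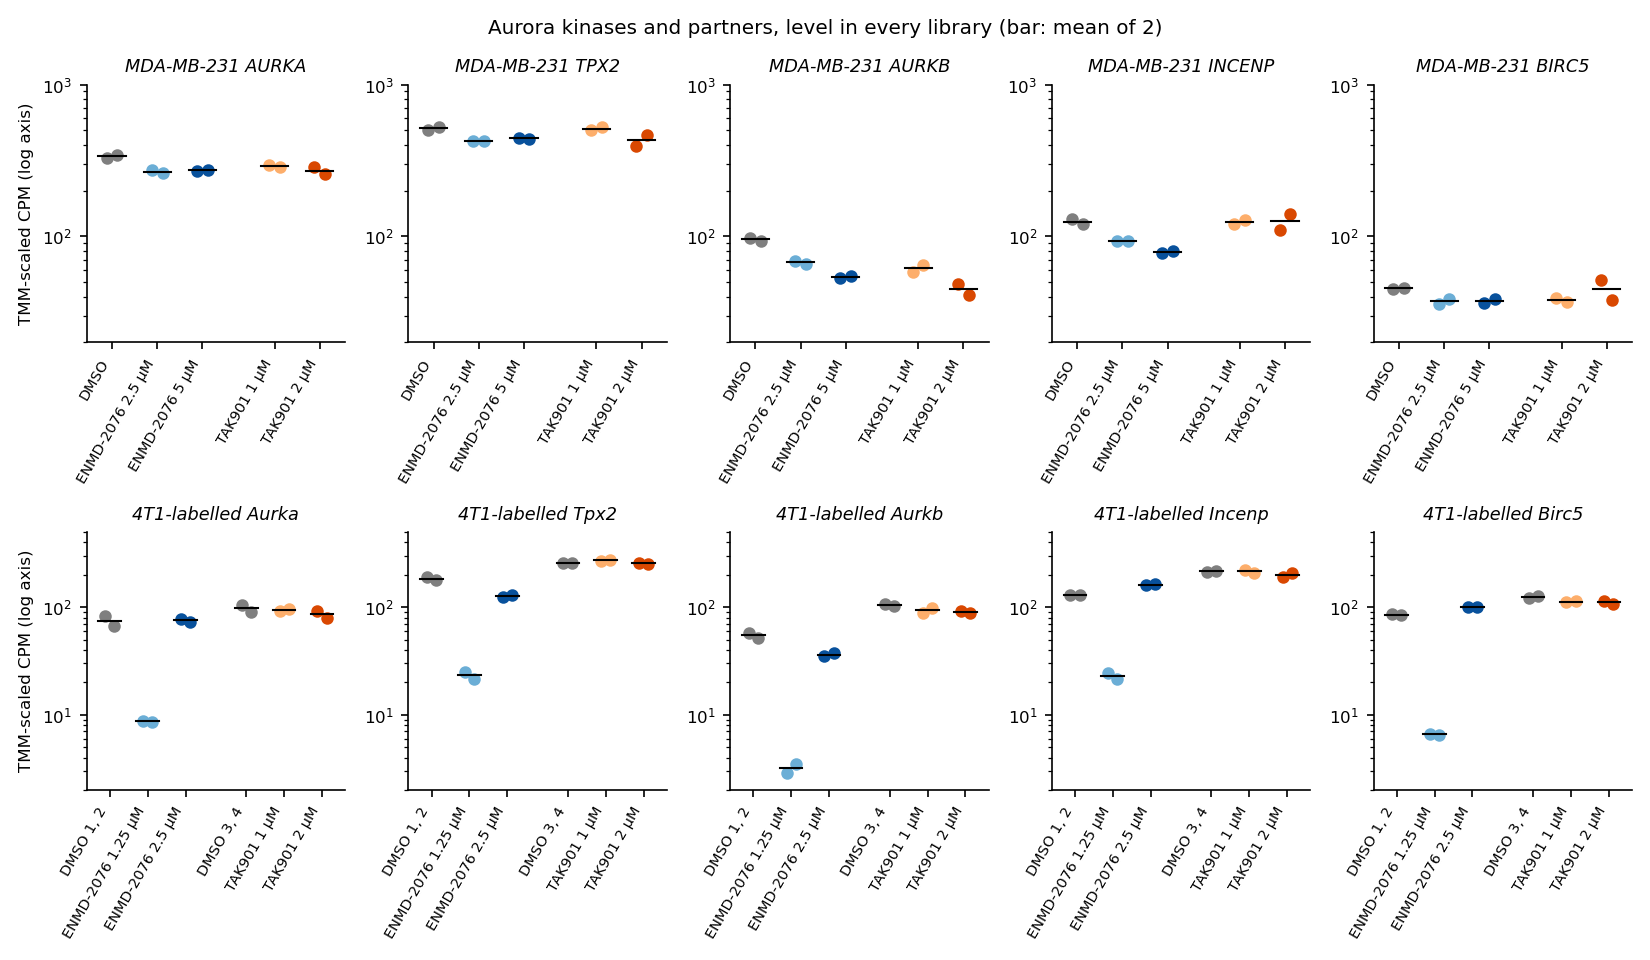
Level of each gene in each library, in TMM-scaled CPM on a log axis (points, libraries; bars, mean of 2), by group along the x axis for MDA-MB-231 (upper row) and 4T1-labelled libraries (lower row). With 1.25 µM ENMD-2076 all 5 genes lie far below every other 4T1-labelled group, with Aurkb at 2.89 and 3.51 CPM, whereas in MDA-MB-231 the levels stay within about the same decade.

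In 4T1 cells 1.25 µM ENMD-2076 lowered the whole group. Levels are given as CPM scaled by TMM, a factor that sets the bulk of genes equal between libraries. Those of cell type markers and of Gm26917 are CPM by total count instead. All 5 genes fell, where 45.9% of the 15375 genes tested were called in either direction and 23.2% were lower (edgeR quasi-likelihood test, Benjamini-Hochberg adjusted p under 0.05). The size differed between them, largest for Aurkb and Birc5 and smallest for Incenp. In bulk RNA, fewer cells in G2 and mitosis and less RNA per such cell cannot be told apart. In the 1.25 µM pair the mitochondrial share was raised, as given above, Gm26917 was at 50.6 and 41.7 CPM, against 36.5 and 29.9 CPM in DMSO 1 and 2, and the basal keratin Krt14 at 56.9 and 54.0 CPM, against 0.65 and 0.29 CPM in DMSO 1 and 2. The 6 mammary epithelial markers together held 2941 to 3005 CPM with 1.25 µM, against 3166 to 3200 CPM in DMSO 1 and 2. That sum hides changes in both directions. Cdh1, like Krt14, was higher, at 798 and 795 CPM with 1.25 µM, against 409 and 430 CPM in DMSO 1 and 2. Krt18 was lower, at 880.7 and 866.4 CPM with 1.25 µM, against 1397.8 and 1406.5 CPM in DMSO 1 and 2. Epcam and Krt8 were lower by less, and Krt5 had no reads. The part of these in the fall was not tested. Per kilobase of annotated exon, Tpx2 was the most abundant of the 5 in DMSO 1 and 2, at 40.8 and 38.1 CPM, and Aurkb the least, at 19.7 and 17.6 CPM. The call of 5 lower genes was the same without the 2.5 µM pair and in every other alternative fit run.

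Aurka (ENSMUSG00000027496.9, GRCm38 chr2:172356190-172370535, minus strand), the kinase of the spindle poles, stood at 8.80 and 8.60 CPM with 1.25 µM ENMD-2076, against 83.4 and 66.5 CPM in DMSO 1 and 2. Both treated libraries lay far below both DMSO libraries, and the gap between the DMSO libraries was small beside it. The fall was 8.65-fold, a log2 fold change of -3.11 (SE 0.12, edgeR adjusted p = 2.4e-20).

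Tpx2 (ENSMUSG00000027469.10, chr2:152847964-152895321, plus strand), which also holds the microRNA gene Mir5622 on the same strand, had 25.2 and 21.5 CPM with 1.25 µM, against 191 and 178 CPM in DMSO 1 and 2. No treated library came near a DMSO library. The log2 fold change was -3.00 (SE 0.07, edgeR adjusted p = 1.4e-24), close in size to that of the kinase it activates.

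Aurkb (ENSMUSG00000020897.6, chr11:69045647-69051664, plus strand), the kinase of the passenger complex, was left with 42 and 109 reads at 1.25 µM, against 1072 and 878 reads in DMSO 1 and 2. That was 2.89 and 3.51 CPM with 1.25 µM, against 58.0 and 51.7 CPM in DMSO 1 and 2. The treated pair was lowest of all 4T1-labelled libraries. Its fall was 16.6-fold, a log2 fold change of -4.06 (SE 0.12, edgeR adjusted p = 7.4e-23).

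Birc5 (ENSMUSG00000017716.9, chr11:117849251-117855743, plus strand) encodes survivin, the subunit that reads a histone mark at centromeres. Its level was 6.60 and 6.54 CPM with 1.25 µM, against 86.5 and 84.2 CPM in DMSO 1 and 2. The libraries of each group nearly coincided. The log2 fold change was -3.70 (SE 0.09, edgeR adjusted p = 1.4e-24).

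Incenp (ENSMUSG00000024660.8, chr19:9872296-9899551, minus strand), the scaffold that binds and activates Aurora B, overlaps the annotated gene AC132253.8 on the same strand, so its count is uncertain where they share bases. It had 24.4 and 21.5 CPM with 1.25 µM, against 131 and 131 CPM in DMSO 1 and 2. The groups were far apart although the change was the smallest of the 5. The log2 fold change was -2.53 (SE 0.07, edgeR adjusted p = 7.4e-23).

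Promoter windows are shown for Aurka, Birc5 and Cdca8, the gene of borealin, which all fell at 1.25 µM. They are reference sequence from RefSeq (GRCm38.p6), from 250 bases before to 50 bases after the annotated start of transcription. No window was available for Aurkb, Tpx2 and Incenp, so their promoters were not searched. Cdca8 is not among the 5 genes and was the gene most like Aurka in these data, as given below. The capitals mark 2 motifs searched on both strands. They are TTTGAA or TTCGAA, the core of the cell cycle homology element that the MuvB complex recognises, and CCAAT, the box bound by the NF-Y factors, which reads ATTGG on the other strand. The Aurka window is chr2:172370521-172370820 on the minus strand, that of Birc5 chr11:117848987-117849286 on the plus strand, and that of Cdca8 chr4:124936868-124937167 on the minus strand.
Aurka: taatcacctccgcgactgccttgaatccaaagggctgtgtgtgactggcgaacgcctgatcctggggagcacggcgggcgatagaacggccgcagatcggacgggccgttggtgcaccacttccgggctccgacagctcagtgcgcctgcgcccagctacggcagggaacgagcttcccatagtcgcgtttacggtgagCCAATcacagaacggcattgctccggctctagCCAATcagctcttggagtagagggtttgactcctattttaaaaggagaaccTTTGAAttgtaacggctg
Birc5: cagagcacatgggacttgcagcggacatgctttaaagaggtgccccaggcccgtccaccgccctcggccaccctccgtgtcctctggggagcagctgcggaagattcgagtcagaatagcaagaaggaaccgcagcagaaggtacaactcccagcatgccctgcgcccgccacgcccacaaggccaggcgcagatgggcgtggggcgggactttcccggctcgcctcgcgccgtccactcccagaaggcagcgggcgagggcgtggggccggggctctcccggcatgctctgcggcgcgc
Cdca8: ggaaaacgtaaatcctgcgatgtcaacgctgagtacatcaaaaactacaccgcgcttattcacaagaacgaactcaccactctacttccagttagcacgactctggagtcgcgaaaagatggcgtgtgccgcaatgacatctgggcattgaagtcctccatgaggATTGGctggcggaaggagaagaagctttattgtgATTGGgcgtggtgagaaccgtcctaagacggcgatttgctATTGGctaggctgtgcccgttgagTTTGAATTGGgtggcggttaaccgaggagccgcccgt
The Aurka window held TTTGAA at position 33 after the start and CCAAT at -51 and -19. In Cdca8 TTTGAA lay at position 14, with CCAAT, in reverse, at -85, -51, -11 and 19, the last sharing 1 base with TTTGAA. The Birc5 window held neither motif. Of 32851 mouse windows of 300 bases, 19.2% held TTTGAA or TTCGAA, 37.4% held CCAAT and 7.52% held both kinds. These matches describe letters in reference sequence and are not evidence of binding.

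**Figure D2:**
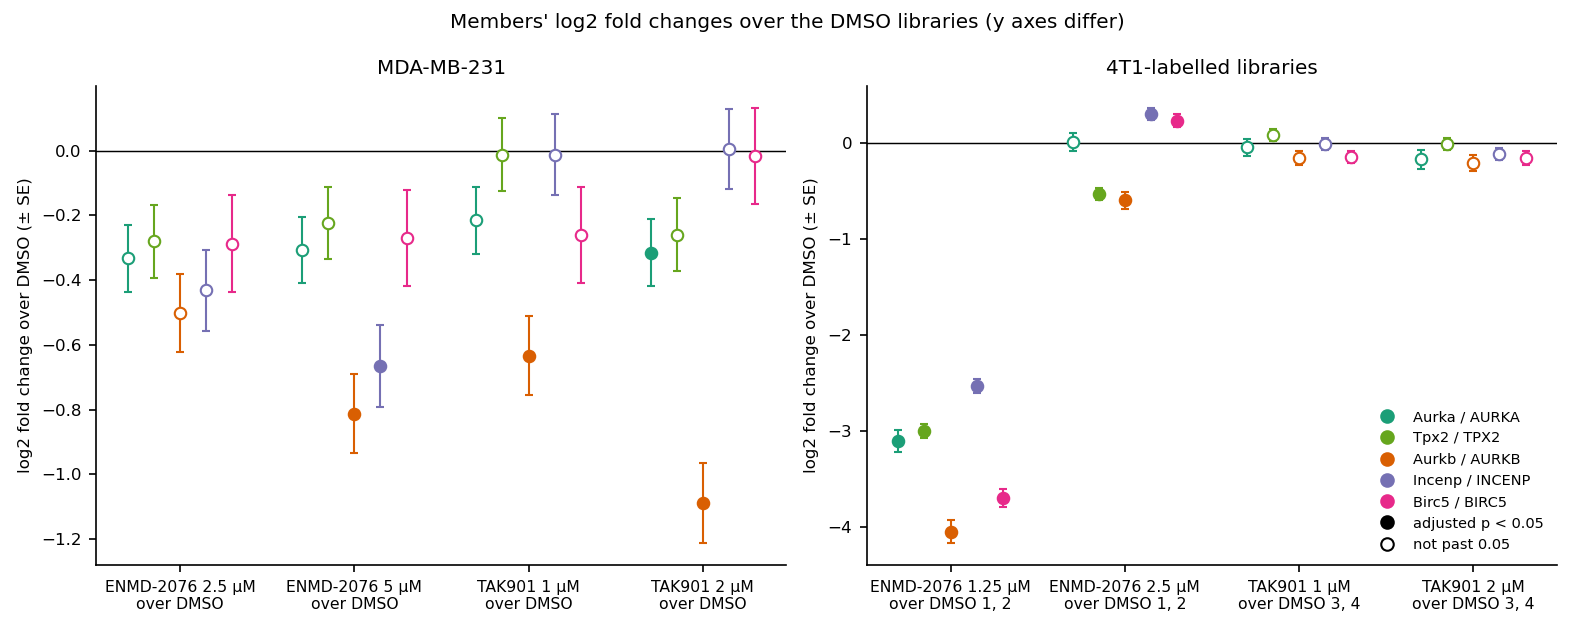
Log2 fold change of each gene over the DMSO libraries of its line and set (y axis, with SE bars), by treatment along the x axis; filled points passed an adjusted p of 0.05. In 4T1 with 1.25 µM ENMD-2076 the changes run from -4.06 to -2.53, those with TAK901 stay between -0.21 and 0.08 and none passed, and in MDA-MB-231 AURKB is the lowest point in every treatment. The small rises of Incenp and Birc5 at 2.5 µM change sign when libraries are scaled by total count.

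At 2.5 µM ENMD-2076 the same genes went different ways. Aurkb and Tpx2 fell, Incenp and Birc5 rose slightly on the TMM scale but not under total-count scaling, and Aurka did not pass the test. Those 4 calls stood where 70.3% of genes were called, 33.2% higher and 37.1% lower, so 4 of 5 is near the background. Aurkb had 35.6 and 37.2 CPM with 2.5 µM, against 58.0 and 51.7 CPM in DMSO 1 and 2, a log2 fold change of -0.60 (SE 0.09, edgeR adjusted p = 6.0e-07). For Tpx2 the levels were 126 and 129 CPM with 2.5 µM, against 191 and 178 CPM in DMSO 1 and 2, with a log2 fold change of -0.53 (SE 0.06, edgeR adjusted p = 1.0e-08). In each case both treated libraries were below both DMSO libraries.

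The scaffold and survivin stood on the other side of DMSO from their kinase on the TMM scale. Incenp had 159 and 164 CPM with 2.5 µM, against 131 and 131 CPM in DMSO 1 and 2 (log2 fold change 0.30, SE 0.06, edgeR adjusted p = 1.2e-04). Birc5 had 101 and 99.5 CPM with 2.5 µM, against 86.5 and 84.2 CPM in DMSO 1 and 2 (log2 fold change 0.23, SE 0.07, edgeR adjusted p = 0.00376). Both treated libraries were above both DMSO libraries for these genes on that scale. Aurka overlapped, with 77.9 and 73.4 CPM with 2.5 µM, against 83.4 and 66.5 CPM in DMSO 1 and 2 (log2 fold change 0.01, SE 0.09, edgeR adjusted p = 0.931).

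The directions of Incenp, Birc5 and Aurka depended on the scaling. TMM factors of the 2.5 µM pair were 0.766 and 0.784, against 0.996 and 0.989 in DMSO 1 and 2. Scaled by total count alone, the median of all genes was -0.37, against -0.02 with TMM, and 3760 genes were called higher and 7247 lower, against 5111 and 5705 with TMM. On that scale Incenp stood at -0.06 (edgeR adjusted p = 0.456), Birc5 at -0.13 (edgeR adjusted p = 0.0999) and Aurka at -0.34 (edgeR adjusted p = 0.00159), while Aurkb at -0.96 and Tpx2 at -0.89 were further down. Gm26917 and the mitochondrial share, given above, were high in this pair. The 6 mammary epithelial markers summed to 1826 to 1843 CPM by total count, against 3166 to 3200 CPM in DMSO 1 and 2. That sum was not taken with TMM. Their part in these values was not tested.

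Ratios of read counts between partners inside a library do not depend on any scaling, and are given without a test because 2 libraries against 2 cannot go below 0.333 in a two-sided exact permutation test. The log2 ratio of Incenp to Aurkb was 2.61 to 3.08 with 1.25 µM and 2.14 to 2.16 with 2.5 µM, against 1.18 to 1.34 in DMSO 1 and 2. That of Birc5 to Aurkb was 0.90 to 1.19 with 1.25 µM and at its lowest 1.42 with 2.5 µM, against 0.58 to 0.70 in DMSO 1 and 2. Relative to their kinase, both partners were higher in each library of either dose than in each DMSO library. The log2 ratio of Tpx2 to Aurka was 0.69 to 0.82 with 2.5 µM, against 1.19 to 1.42 in DMSO 1 and 2, so the activator was lower relative to its kinase. At 1.25 µM that ratio was 1.32 to 1.52, against 1.19 to 1.42 in DMSO 1 and 2, and the groups overlapped.

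Aurkb was lower relative to Aurka at both doses of ENMD-2076 in 4T1. The log2 ratio of Aurkb to Aurka was -1.61 to -1.29 with 1.25 µM, against -0.53 to -0.36 in DMSO 1 and 2. With 2.5 µM it was -1.13 to -0.98. Neither dose overlapped DMSO 1 and 2.

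**Figure D3:**
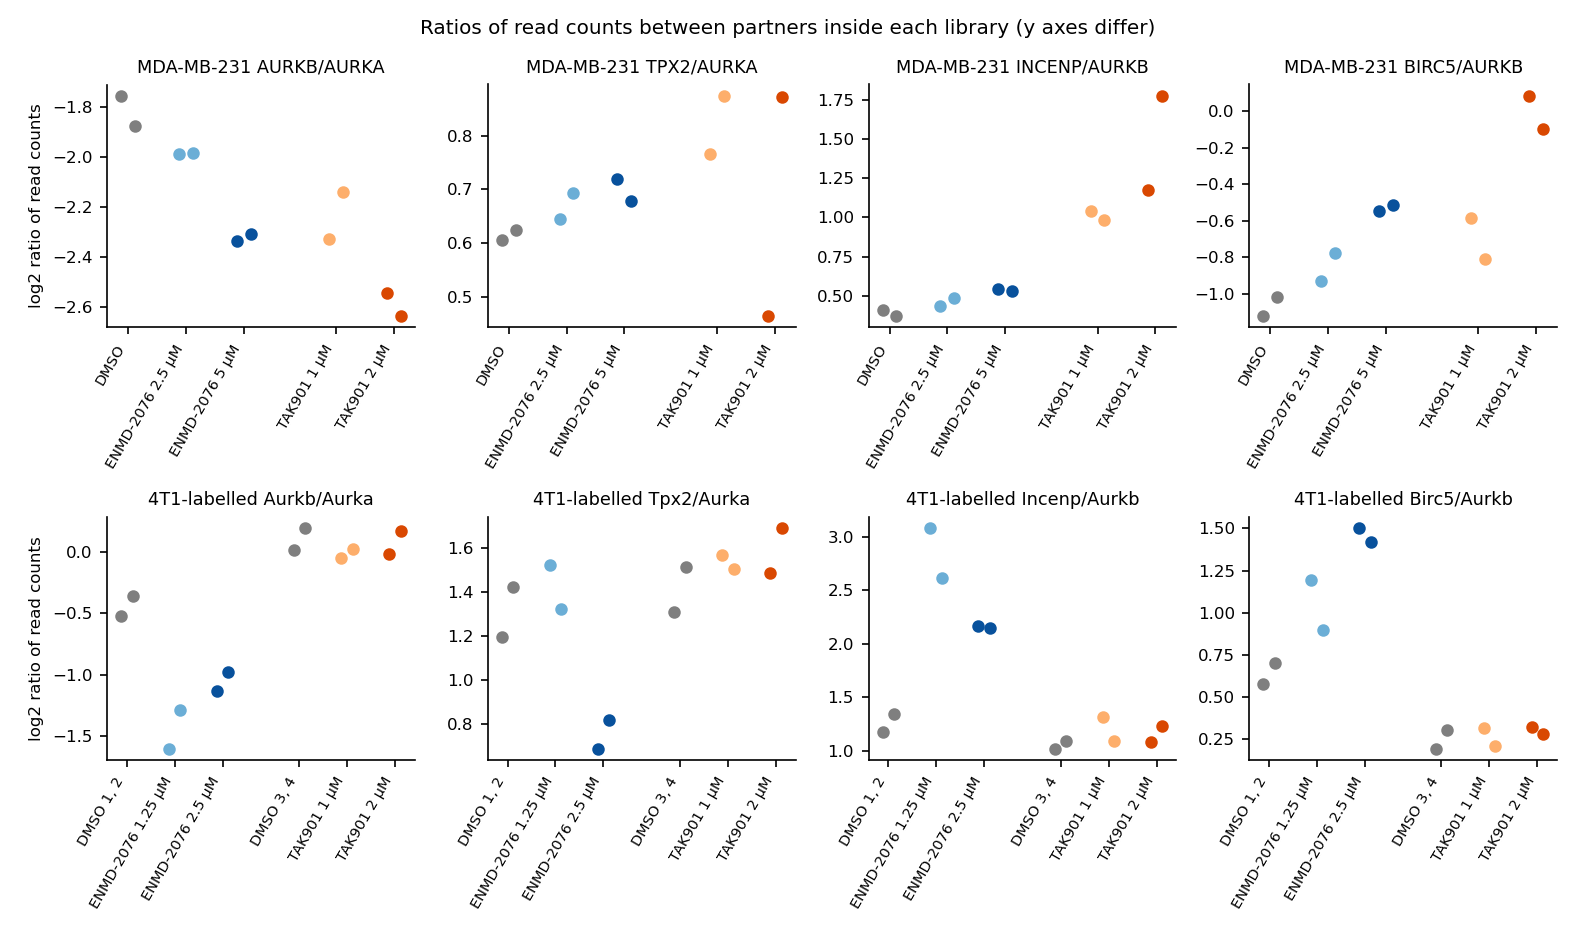
Log2 ratios of the read counts of partner genes inside each library (y axis, a different range in each panel), by group along the x axis, for MDA-MB-231 (upper row) and 4T1-labelled libraries (lower row). Each point is 1 library. AURKB relative to AURKA is lower in every treated MDA-MB-231 library than in DMSO, and Tpx2 relative to Aurka is lowest in the 4T1 pair at 2.5 µM ENMD-2076, at 0.69 and 0.82.

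As labelled, the 2 doses did not form a graded series in 4T1. All 5 genes were higher with 2.5 µM than with 1.25 µM, where 73.3% of genes were called and 35.4% were higher with 2.5 µM. The differences on the log2 scale were 3.93 for Birc5 (SE 0.09), 3.46 for Aurkb (SE 0.13), 3.13 for Aurka (SE 0.12), 2.83 for Incenp (SE 0.07) and 2.47 for Tpx2 (SE 0.08), with edgeR adjusted p from 9.2e-26 for Birc5 to 9.2e-21 for Aurka. Under total-count scaling they were smaller, 3.55 for Birc5 and 2.09 for Tpx2, and all 5 were still called. The growth notes give 1 or 2 µM ENMD-2076 for 4T1, and the column headers of both treated pairs read 10 µM with no compound named. The treatment labels were followed here, so the order of the doses rests on them.

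Genes around the kinases were read from 8 lists of 74 mouse genes in the same fit. Borealin, Cdca8, the remaining subunit of the passenger complex, fell with 1.25 µM ENMD-2076 to 9.31 CPM, against 61.5 CPM in DMSO 1 and 2, a log2 fold change of -2.72 (edgeR adjusted p = 3.9e-19). At 2.5 µM it stood at 61.1 CPM, with a log2 fold change of 0.00 (edgeR adjusted p = 1). Aurkc, the germ cell relative of the Aurora kinases, was too low to test. The counts and the median change of each list stand beside those of all genes, of which 45.9% were called and 23.2% were lower at 1.25 µM, with a median of 0, and 33.2% were higher and 37.1% lower at 2.5 µM, with a median of -0.02.

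Genes listed for Aurora B recruitment, a list that also held the checkpoint kinases Chek1 and Ttk, fell together at 1.25 µM. All 6 of 6 were lower, with a median of -3.09, and the largest falls were those of Bub1, the kinase that marks centromeric histone (-3.67), and Sgo1, the centromere guardian of cohesion (-3.57). At 2.5 µM 2 rose and 1 fell, with a median of 0.10. The checkpoint kinase Chek1 (1.43) and Haspin, the histone kinase whose mark survivin binds (0.87), rose, and the checkpoint kinase Ttk (-0.67) fell.

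Among 14 kinetochore, kinesin and spindle genes, many of whose products are Aurora substrates, 14 fell at 1.25 µM with a median of -2.95. Ska1 (-3.88) and Ndc80 (-3.83), both at the kinetochore, fell most. At 2.5 µM 9 fell and 4 rose, with a median of -0.45. Ska1 (-2.19) and Kif2c, a microtubule depolymerase regulated by Aurora B (-2.11), were lowest. Ska3 (1.39) and Dsn1 (0.99), also of the kinetochore, rose.

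Activators and spindle factors of Aurora A were divided. At 1.25 µM 8 of 12 fell and 4 rose, with a median of -1.16. The spindle factors Hmmr (-3.12) and Tacc3 (-2.71) fell most, whereas Nedd9 (1.96) and Ajuba (1.34), adaptor proteins that bind and activate Aurora A, rose. Each of those adaptors is also known outside mitosis, at cell adhesions. At 2.5 µM 5 fell and 5 rose. Numa1 (-1.14) and Ckap5 (-1.01), which organise spindle microtubules, fell most, and Ran, the GTPase that frees TPX2 from importin (2.05), and Cep192, which binds Aurora A at centrosomes (0.79), rose most.

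Mitotic entry genes fell in 8 of 8 cases at 1.25 µM (median -2.98), led by the phosphatase Cdc25c (-3.72) and cyclin A2, Ccna2 (-3.52). At 2.5 µM 5 fell, led by Cdc25b (-2.45) and Cdc25c (-1.67), and 2 rose, Cdk1 (0.96) and its inhibitory kinase Wee1 (0.90). Over the alternative fits 4 to 6 of these entry genes were lower and 2 to 3 higher at 2.5 µM. Of 11 phosphatase and degradation genes, 5 fell at 1.25 µM, led by Ube2c (-3.34) and Cdc20 (-2.90), which serve the anaphase-promoting complex, and only Chfr, a ubiquitin ligase of the mitotic checkpoint, rose (0.82). At 2.5 µM Cdc20 (-2.02) and Ppp6r1 (-1.25), a subunit of the phosphatase that acts on Aurora A, fell most among 5, and 3 rose, led by Fbxw7 (0.44) and Chfr (0.38). That list's counts at 2.5 µM ranged from 0 to 4 higher and 2 to 8 lower over the alternative fits, those of the activators from 3 to 5 higher and 3 to 7 lower, those of the recruitment genes from 2 to 3 higher and 1 to 3 lower, and those of the kinetochore and spindle genes from 2 to 5 higher and 8 to 10 lower.

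Among regulators of G2 and M transcription most called genes were lower at 1.25 µM and most were higher at 2.5 µM. At 1.25 µM 11 of 16 fell and 2 rose, with a median of -0.53. The repressor E2f8 (-3.91) and the activator Foxm1 (-3.28) fell most, and Nfya (0.47) and Rbl2 (0.26) rose. At 2.5 µM 9 of 16 rose and 4 fell, with a median of 0.72, where 33.2% of all genes were higher and 37.1% lower. Over the alternative fits 9 to 10 were higher and 3 to 7 lower. E2f7 (2.71), a repressor, and Lin9 (1.90), a subunit of the MuvB complex, rose most, and Rbl2 (-1.16) and E2f4 (-0.66) fell most. Foxm1 itself was at 163 CPM with 2.5 µM, against 102 CPM in DMSO 1 and 2, and rose by 0.68 on the log2 scale. These are values with TMM, and total-count scaling put the median of all genes at -0.37, against -0.02 with TMM.

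Survivin belongs by sequence to the inhibitors of apoptosis, and its relatives were divided. At 1.25 µM 2 of 5 rose, Birc2 (0.86) and Birc3 (0.57), and Xiap fell slightly (-0.20). At 2.5 µM, where Birc5 was at 0.23 by TMM and at -0.13 by total count, 3 fell, Birc3 (-2.03), Xiap (-1.96) and Birc2 (-1.19). None of these 5 relatives was called higher at 2.5 µM in any of the alternative fits.

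**Figure D4:**
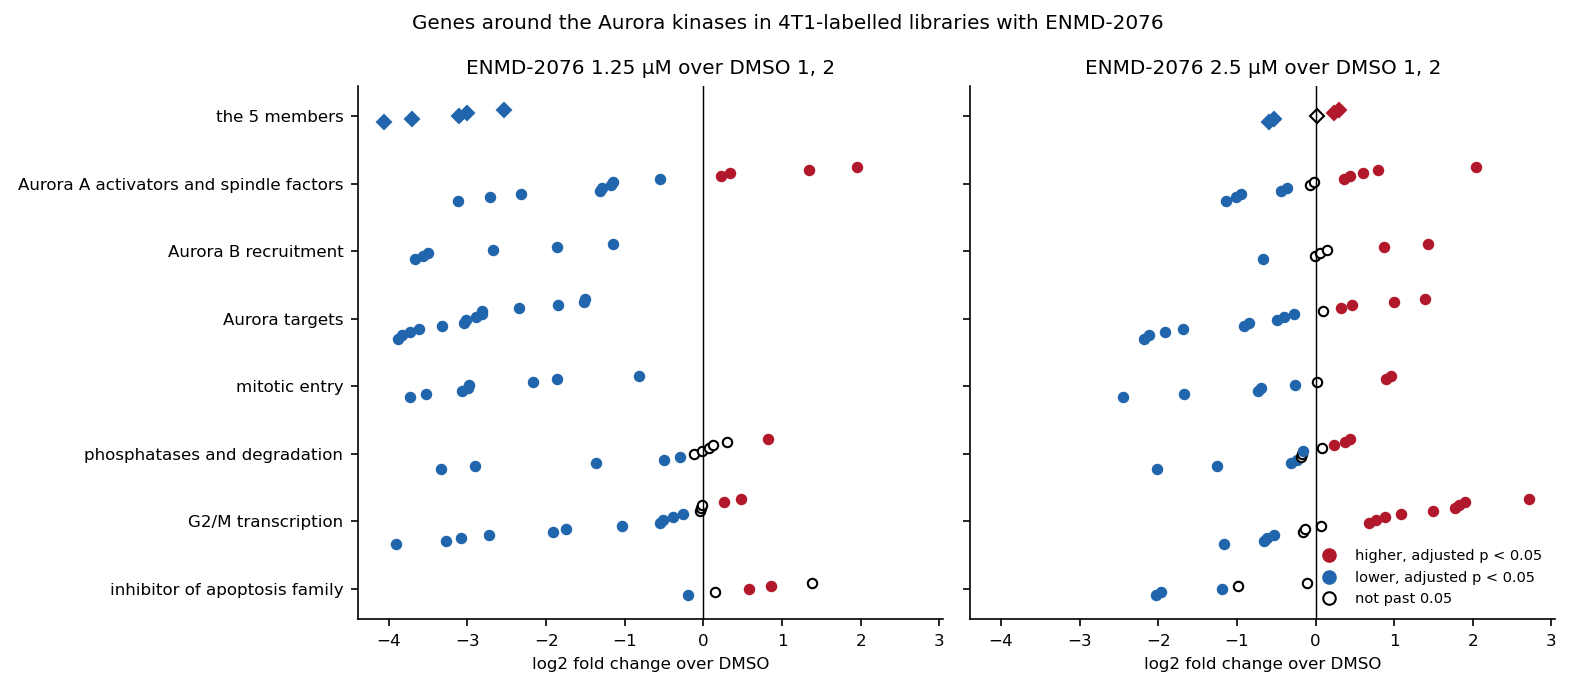
Log2 fold change over DMSO 1 and 2 (x axis) of the 5 genes (diamonds) and of each gene in 7 lists (circles, stacked by list) in 4T1-labelled libraries, with 1.25 µM ENMD-2076 at left and 2.5 µM at right; red and blue mark genes higher and lower past an adjusted p of 0.05. At 1.25 µM the recruitment, target and mitotic entry lists lie wholly below 0, and at 2.5 µM every list except the inhibitor of apoptosis family has called genes on both sides under TMM scaling, and total-count scaling moves the median of all genes at 2.5 µM to -0.37.

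Which genes ran most like each kinase was asked of all genes tested, over the 12 4T1-labelled libraries, each set relative to its own DMSO pair. Cdca8 was most like Aurka (Pearson r = 0.996), followed by the kinesins Kif22, Kifc5b and Kif11 and by Ube2c (r from 0.994 to 0.995). Kifc5b has a near-identical relative, so its count is uncertain. For Aurkb the genes were Top2a, the topoisomerase of condensing chromosomes (r = 0.999), Cenpa, the centromeric histone (r = 0.999), Iqgap3, Ccna2 and Cenpn (r from 0.996 to 0.997). The points share libraries and depth, and 2 of them, the 1.25 µM pair, lie far from the rest. Of these 10 genes 9 had a promoter window, and TTTGAA or TTCGAA was in 9 of them and CCAAT in 8. Among all mouse windows 19.2% held the first and 37.4% the second. The 10 genes were picked by r in these same libraries, and these counts were not tested.

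Without that pair the pattern of Aurkb stayed close to some genes and left others. Over the other 10 libraries Aurkb still ran with Cenpa (r = 0.976), Top2a (r = 0.959) and Tpx2 (r = 0.882). With its own partners it no longer ran together, at r = -0.56 for Birc5 and r = -0.76 for Incenp. Among those libraries the 2.5 µM pair holds the largest changes of Aurkb, and there the sign of Birc5 and Incenp depends on the scaling. The values of r were not computed under total-count scaling. Aurka and Aurkb, at r = 0.985 over 12 libraries, stood at r = 0.09 over 10. The values of Aurka with its 5 nearest genes were then 0.31 to 0.57.

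With TAK901 none of the 5 genes passed the test in the 4T1-labelled libraries. At 1 µM none of 5 was called by edgeR, where 9.14% of genes were. At 2 µM none of 5 was called either, where 14.9% of genes were. At each dose 2 of 5 had an unadjusted p under 0.05, Aurkb and Birc5, and DESeq2 called 0. A fit of the 1 µM and DMSO libraries alone called these 2 genes lower. That fit called 3719 genes in the whole table, 1990 of them lower, against 1406 in the main fit.

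Aurkb had 88.7 and 98.3 CPM with 1 µM and 91.3 and 88.8 CPM with 2 µM TAK901, against 106 and 103 CPM in DMSO 3 and 4. All 4 treated libraries were below both DMSO libraries. The log2 fold change was -0.16 at 1 µM (SE 0.08, edgeR adjusted p = 0.238) and -0.21 at 2 µM (SE 0.09, edgeR adjusted p = 0.101). Birc5 likewise lay below DMSO, with 111 and 114 CPM at 1 µM and 115 and 108 CPM at 2 µM, against 121 and 127 CPM in DMSO 3 and 4. Its log2 fold change was -0.15 at 1 µM (edgeR adjusted p = 0.186) and -0.16 at 2 µM (edgeR adjusted p = 0.166).

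The other genes overlapped or moved less. Aurka was at 91.8 and 96.8 CPM with 1 µM and 92.3 and 79.0 CPM with 2 µM, against 105 and 89.9 CPM in DMSO 3 and 4. Tpx2 was at 272 and 275 CPM with 1 µM and 258 and 255 CPM with 2 µM, against 260 and 257 CPM in DMSO 3 and 4. Incenp was at 221 and 209 CPM with 1 µM and 193 and 208 CPM with 2 µM, against 214 and 218 CPM in DMSO 3 and 4. None differed from DMSO by more than 0.17 on the log2 scale, with SE from 0.06 to 0.10. Between 2 and 1 µM none of 5 was called (background 0.0715%), none had an unadjusted p under 0.05, and DESeq2 called 0.

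Some genes of the lists passed the test with TAK901. Over all genes 9.14% were called at 1 µM and 14.9% at 2 µM. With 1 µM 4 of 16 transcription regulators fell, led by Mybl2, the activator that works with MuvB (-0.55), and E2f7 (-0.38), and with 2 µM 6 of 16 fell, led by Mybl2 (-0.87) and E2f8 (-0.78). Over the alternative fits these counts ranged from 0 to 7 at 1 µM and from 5 to 8 at 2 µM. Ran (-0.37 and -0.53 at 1 and 2 µM) and its exchange factor Rcc1 (-0.55 and -0.77) fell, and Nedd9 rose (0.27 and 0.39). Ppp1cc, a catalytic subunit of phosphatase 1, fell at both doses (-0.22 each). At 2 µM Cdk1 (-0.32) and Ccnb1 (-0.29) fell, and Ppp6r2 (0.58), Birc3 (0.49) and Birc2 (0.40) rose. None of the 6 recruitment genes and none of the 14 target genes was called by edgeR at either dose. Over the alternative fits the inhibitor of apoptosis family had from 0 to 3 genes called higher at each dose, the mitotic entry list from 0 to 3 lower at 2 µM, and the recruitment list at most 1 in either direction.

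In MDA-MB-231 the gene called most often in the fit of all libraries was AURKB. It was called lower in 3 of the 4 treatments, INCENP in 1 and AURKA in 1, and TPX2 and BIRC5 passed in none. Over all genes 2.19% were called lower with 5 µM ENMD-2076, 7.47% with 1 µM and 16% with 2 µM TAK901. Without the 2 µM TAK901 pair AURKA, TPX2 and INCENP were also called at both ENMD-2076 doses, as given below. All 4 treatments were set against the same 2 DMSO libraries. Numbers of genes called in this line depended strongly on which libraries entered the fit.

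AURKB had 68.6 and 66.1 CPM with 2.5 µM ENMD-2076 and 53.4 and 55.2 CPM with 5 µM, against 97.8 and 93.1 CPM in DMSO. With TAK901 it had 58.5 and 64.6 CPM at 1 µM and 48.6 and 41.1 CPM at 2 µM. In order from DMSO down, the groups ran 2.5 µM ENMD-2076, 1 µM TAK901, 5 µM ENMD-2076 and 2 µM TAK901, and no neighbours in that order overlapped.

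For AURKB the log2 fold change over DMSO was -0.50 with 2.5 µM ENMD-2076 (SE 0.12, edgeR adjusted p = 0.0960) and -0.81 with 5 µM (SE 0.12, edgeR adjusted p = 0.00271). With TAK901 it was -0.63 at 1 µM (SE 0.12, edgeR adjusted p = 0.00430) and -1.09 at 2 µM (SE 0.12, edgeR adjusted p = 2.4e-05), a 2.13-fold fall at the last. The first missed the threshold and the other 3 passed it. Between the higher and the lower dose AURKB differed by -0.31 for ENMD-2076 (edgeR adjusted p = 0.879) and by -0.46 for TAK901 (edgeR adjusted p = 0.0555), and neither passed. DESeq2 did call the difference between TAK901 doses, at an adjusted p of 0.0288.

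Against the background these counts read differently by treatment. With 2.5 µM ENMD-2076 none of 5 was called by edgeR, where 0.607% of genes were, 4 had an unadjusted p under 0.05 and DESeq2 called 1. With 5 µM 2 of 5 were called, both lower, against 4.89% of genes in either direction and 2.19% lower. With 1 µM TAK901 1 of 5 was called, against 13.9% of genes, 7.47% lower. With 2 µM 2 of 5 were called, against 31.2% of genes, 16% lower, so 2 µM is near the background.

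INCENP was low with ENMD-2076 and overlapped DMSO with TAK901. It had 92.7 and 92.5 CPM with 2.5 µM ENMD-2076 and 77.7 and 79.8 CPM with 5 µM, against 130 and 120 CPM in DMSO. All 4 libraries of ENMD-2076 lay below DMSO, and the log2 fold change was -0.43 at 2.5 µM (SE 0.12, edgeR adjusted p = 0.169) and -0.67 at 5 µM (SE 0.13, edgeR adjusted p = 0.00978). With TAK901 INCENP had 120 and 128 CPM at 1 µM and 110 and 141 CPM at 2 µM, overlapping DMSO at each dose. The log2 fold changes there were -0.01 at 1 µM and 0.01 at 2 µM, with an SE of 0.12 each. That SE rests on a spread shared by all groups and does not show how far apart the 2 µM libraries were. Leaving out single libraries moved the value at 2 µM between -0.20 and 0.17. A difference between the compounds was not tested, since their doses differ.

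Relative to its kinase, INCENP was higher than in DMSO in every treated library, with ENMD-2076 as well as TAK901. AURKB, the other term of that ratio, was itself below DMSO in every treatment. On the log2 scale INCENP to AURKB was 0.43 to 0.49 with 2.5 µM and 0.53 to 0.54 with 5 µM ENMD-2076. It was 0.98 to 1.04 with 1 µM TAK901, against 0.37 to 0.41 in DMSO. With 2 µM TAK901 the libraries lay apart, at 1.18 and 1.78, both above all other groups. AURKB to AURKA was -2.34 to -2.31 with 5 µM ENMD-2076 and -2.64 to -2.55 with 2 µM TAK901, against -1.88 to -1.76 in DMSO. Each of the 4 treated groups was below DMSO in that ratio.

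AURKA had 272 and 261 CPM with 2.5 µM ENMD-2076 and 270 and 273 CPM with 5 µM, against 330 and 342 CPM in DMSO. With TAK901 it had 294 and 285 CPM at 1 µM and 284 and 256 CPM at 2 µM. Every treated library was below both DMSO libraries, and the treated groups overlapped one another except that 1 µM TAK901 lay highest. The log2 fold change was -0.33, -0.31, -0.22 and -0.31 in the order given, with an SE of 0.10 each, and only that of 2 µM TAK901 passed (edgeR adjusted p = 0.0324). That call was lost in 9 of the 17 alternatives run for it.

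TPX2 had 426 and 422 CPM with 2.5 µM ENMD-2076 and 445 and 438 CPM with 5 µM, against 503 and 527 CPM in DMSO. Its log2 fold changes were -0.28 (edgeR adjusted p = 0.342) and -0.22 (edgeR adjusted p = 0.289), and both treated pairs were below DMSO. With TAK901 TPX2 had 499 and 522 CPM at 1 µM, overlapping DMSO, and 392 and 469 CPM at 2 µM, where the libraries lay wide apart below DMSO. The log2 fold changes were -0.01 and -0.26 (edgeR adjusted p = 0.955 at 1 µM and 0.0954 at 2 µM).

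BIRC5 had 36.0 and 38.6 CPM with 2.5 µM ENMD-2076 and 36.6 and 38.7 CPM with 5 µM, against 44.8 and 46.0 CPM in DMSO. With 1 µM TAK901 it had 39.0 and 36.8 CPM, so all 6 of these treated libraries were below DMSO. With 2 µM it had 51.6 and 38.4 CPM, 1 above and 1 below DMSO. The log2 fold changes were -0.29, -0.27, -0.26 and -0.02, with an SE of 0.15 each, and none passed (edgeR adjusted p from 0.271 to 0.947). Leaving out single libraries moved the value at 2 µM TAK901 between -0.25 and 0.17. Between the doses of ENMD-2076 none of the 5 genes was called (background 0.0135%), 1 had an unadjusted p under 0.05 and DESeq2 called 0. Between 2 and 1 µM TAK901 none of 5 was called (background 3.74%), 2 had an unadjusted p under 0.05 and DESeq2 called 1.

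Leaving out libraries changed several of these calls. Without both libraries of 2 µM TAK901, 4 of 5 were called lower with 2.5 µM and with 5 µM ENMD-2076, namely AURKA, AURKB, TPX2 and INCENP, and 2 with 1 µM TAK901, AURKA and AURKB. The background rose in the same fits, to 953 genes called with 2.5 µM ENMD-2076, against 90 with all libraries, to 2460 with 5 µM, against 725, and to 3970 with 1 µM TAK901, against 2065. Leaving out either one of that pair gave the same counts of the 5 genes. With 5 µM ENMD-2076 INCENP no longer passed when any library of DMSO or of the treated group was left out. AURKB then passed only when the library left out was DMSO replicate 2. The log2 fold change of AURKB kept between -0.85 and -0.78 through these fits. With 1 µM TAK901 AURKB was not called without its replicate 1 (log2 fold change -0.57, edgeR adjusted p = 0.0584). With 2 µM TAK901 AURKB was called in every fit run, whereas TPX2 was called without replicate 2 of that group (-0.41, edgeR adjusted p = 3.6e-04). That same omission called TPX2 lower (-0.39) and BIRC5 higher (0.43) between 2 and 1 µM, and omitting its replicate 1 called AURKB lower there (-0.58).

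In MDA-MB-231 likeness was measured the same way. Over 10 libraries set relative to DMSO, AURKA and AURKB ran at r = 0.81, and without the DMSO pair at r = 0.28. Over the 10 libraries, AURKB with INCENP stood at r = 0.14 and with BIRC5 at r = 0.23, and without the DMSO pair at r = -0.34 and r = -0.42 in that order. The genes most like AURKB were ENSG00000125166.8 (r = 0.977) and ENSG00000165480.11 (r = 0.969), and those most like AURKA were ENSG00000072682.14 (r = 0.954) and ENSG00000213585.6 (r = 0.946), none of which was paired with a symbol here.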

How the data were processed

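For every one of the 22 libraries the authors deposited unnormalised whole-number counts of reads by gene. Per the labels' protocols, libraries were made with the NEBNext Ultra RNA kit from TRIzol RNA and sequenced on an Illumina HiSeq. Tools listed in the submitters' processing notes are Bowtie, TopHat, HTSeq, DESeq2 and FastQC 0.11.3, and builds hg38 and mm10, with no role or order, and strand handling is not given in the sources used here. Lines of the HTSeq summary, in the 6 tables of TAK901 and DMSO 3 and 4, were removed before library sizes were taken; reads in no feature were 5.51 to 7.63% of records there.

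For each line all groups entered 1 fit in edgeR 4.0.16 (R 4.3.3; filterByExpr, TMM, two-sided quasi-likelihood test), with p-values adjusted by Benjamini-Hochberg over 14826 genes in MDA-MB-231 and 15375 in 4T1 and a threshold of 0.05. The SE of a log2 fold change is its size divided by the square root of F. All groups of a line share 1 estimate of a gene's spread, so the SE does not follow the spread of a single group. The procedure was run on simulated counts in which every group had the same spread. That run therefore does not cover the unequal spread of the MDA-MB-231 groups. Symbols, places and exon lengths of mouse genes came from GENCODE vM21 (37607 of 38924 IDs matched). ENMD-2076 and TAK901 groups of 4T1 were set against the DMSO pair of their own naming set in the titles. From each list the text names the 2 largest rises and 2 largest falls past the threshold in each comparison with DMSO, and the 5 genes most like each kinase in 4T1 and 2 in MDA-MB-231. Foxm1 and Birc2 at 2.5 µM were added after their values were seen. Members and lists were chosen with earlier results of these data known. Libraries of the same number were not more alike than others (correlation of deviations -0.02 to 0.11), so no block was used. No 2 libraries were duplicates. Alternatives were DESeq2 1.42.0, RLE and total-count scaling, no filter or 1 CPM, only the groups compared or only their naming set, a replicate block, and leaving out libraries.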

Additional observations from a re-analysis of the deposited data

Results flagged for a closer look

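With 2.5 µM ENMD-2076, the dose both lines share, Birc5 and Incenp lay on opposite sides of DMSO in the 2 lines. For Birc5 every MDA-MB-231 library was below DMSO (log2 fold change -0.29) and every 4T1 library above it (0.23), a difference between lines of -0.52. For Incenp the log2 fold change was -0.43 in MDA-MB-231 and 0.30 in 4T1, a difference of -0.73. These were 2 of 15 pairs compared, and the difference itself was not tested. The MDA-MB-231 changes did not pass the edgeR threshold, and the 4T1 changes turned negative under total-count scaling, at -0.13 for Birc5 and -0.06 for Incenp.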

How the results depend on the processing

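Among log2 fold changes of the 5 genes under the alternatives, 1082 kept their side of the threshold, 38 newly passed, 17 no longer passed and 3 turned. The 3 were Aurka (-0.34), Birc5 (-0.13) and Incenp (-0.056) with 2.5 µM ENMD-2076 in 4T1 under total-count scaling. The cause was not tested. A change of sign was counted as a turn only where the gene was called in the main or the alternative fit. Values called in neither could change sign and still stand among the 1082. An example is INCENP with 2 µM TAK901 in MDA-MB-231, which ran from -0.20 to 0.17. Counts of the 5 genes called in MDA-MB-231 moved as follows. With 2.5 µM ENMD-2076, 0 became 1 in DESeq2, 4 when only the 2 groups were fitted and 4 without both 2 µM TAK901 libraries. With 5 µM, 2 became 4 in each of the last 2 settings. With 1 µM TAK901, 1 became 2 without the 2 µM pair. With 2 µM, 2 became 1 under total-count scaling and 1 with only the 2 groups. Between ENMD-2076 doses, 0 became 1 with only the 2 groups. Between TAK901 doses, 0 became 1 in DESeq2, 1 without a low-count filter and 1 with the replicate block, which changed no other count of the 5 genes. Leaving out single libraries gave 0 to 4 at 2.5 and at 5 µM ENMD-2076, 0 to 2 at 1 µM and 1 to 3 at 2 µM TAK901, and 0 to 2 between TAK901 doses. In 4T1, 1 µM TAK901 gave 2 in place of 0 with only the 2 groups fitted. Over all alternatives, genes called in the whole table ranged in MDA-MB-231 from 11 to 966 (reported: 90) at 2.5 µM and 67 to 2503 (725) at 5 µM ENMD-2076, 739 to 3995 (2065) at 1 µM and 2340 to 5594 (4623) at 2 µM TAK901, and between doses 1 to 707 (2) and 0 to 3581 (555). In 4T1 they ranged from 376 to 3719 (1406) at 1 µM, 1245 to 3377 (2292) at 2 µM and 1 to 99 (11) between TAK901 doses, and stayed within 1.5 times with ENMD-2076. With 2 libraries a group, and 2 µM TAK901 libraries of 6.00 and 3.75 M reads in 4T1, small changes may be missed.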

Other observations

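The DMSO pairs of the 2 naming sets of 4T1-labelled libraries differed in level for all 5 genes, given here as values without a test because set and pair cannot be told apart. As given above, DMSO 3 and 4 also held reads of Y-linked genes and endoderm factors that DMSO 1 and 2 lacked. The pairs may therefore not be the same cells, and the part of that in these levels was not tested. Aurkb had 106 and 103 CPM in DMSO 3 and 4, against 58.0 and 51.7 CPM in DMSO 1 and 2. Incenp had 214 and 218 CPM in DMSO 3 and 4, against 131 and 131 CPM in DMSO 1 and 2. Tpx2, Birc5 and Aurka were also higher in both libraries of DMSO 3 and 4. The log2 ratio of Aurkb to Aurka was 0.02 to 0.20 in DMSO 3 and 4, against -0.53 to -0.36 in DMSO 1 and 2.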
